A study of Mus musculus with 18 samples.

Results

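The genes encoding the proteins of the cytosolic ribosome were followed through an RNase protection experiment on mouse liver RNA. They were taken by symbol from the protein-coding genes of GENCODE M21: genes named Rpl or Rps with a number, the stalk genes Rplp0, Rplp1 and Rplp2, and Rpsa, leaving out the Rps6k kinases. The rule gave 83 of 21951 protein-coding genes, 51 of the large subunit and 32 of the small one. Among them are 6 paralogues, Rpl3l, Rpl7l1, Rpl10l, Rpl22l1, Rpl39l and Rps27l. The fusion gene Fau and the ribosome-associated Rack1 also encode ribosomal proteins but carry other names, and they are described at the end.

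Livers came from mice aged 8 to 9 days of 2 genotypes, both without MAVS, the adaptor through which the RNA sensor MDA5 signals. The editing-deficient mice (Adar-/-; Mavs-/-) also lack ADAR1, the enzyme that deaminates adenosine to inosine in double-stranded RNA, while the Mavs-/- mice retain it. Both losses affect the whole animal, and whole liver was used. Total RNA was left undigested (Input), digested with RNase A and RNase T1 (RNase-only), or digested after incubation with an MDA5 protein without its signaling domains (MDA5-protected). Each combination has 3 replicates, so there are 18 libraries and 18 lists of peaks, stretches where reads piled up significantly. The study's methods call the replicates biological, and the labels do not say whether each is a separate animal, so p-values measure the spread between these samples.

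Ribosomal protein messenger RNAs are among the most abundant of any growing cell. They are short, are spliced from several small exons, start with an oligopyrimidine tract through which their translation is regulated together, and have given rise to many processed pseudogenes. Their introns house small nucleolar RNAs (snoRNAs), which guide the methylation or pseudouridylation of other RNAs and are released from the spliced intron. Peaks on snoRNAs were therefore kept apart from peaks on exons.

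Lists held 4326 to 8948 peaks for Input, 3150 to 6094 for RNase-only and 1180 to 2868 for MDA5-protected RNA. They hold no read counts, so depth is unknown and the values below are covered bases, not expression levels. All 11 hepatocyte markers, from Alb to Cps1, had exonic peaks in every Input library and none in any digested one. Input peaks also covered 4 to 7 of 8 erythroid and 5 or 6 of 6 Kupffer cell markers, up to 3 of 4 endothelial, 1 or 2 of 4 stellate and 0 of 4 cholangiocyte markers. Of the last list, 2 or 3 genes had peaks in each RNase-only library.

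In undigested RNA, 62 of the 83 genes had a peak on an exon in at least 1 library and 23 had one in all 6. Numbers per library were 44, 44 and 57 in editing-deficient liver (48.3 ± 7.51, SD, n = 3) and 29, 32 and 41 in Mavs-/- liver (34 ± 6.25, SD, n = 3). No library of one genotype overlapped those of the other, and neither did the lengths of the whole lists, 6991 to 8948 against 4326 to 6625 peaks. As a share of all protein-coding genes with an exonic peak, the ribosomal protein genes made up 1.44% to 1.87% in editing-deficient and 1.64% to 2.21% in Mavs-/- Input, and these ranges overlapped. The exact binomial (Clopper-Pearson) 95% intervals of the 6 shares reached from 1.05% to 3.1%, and they cover counting error only. Of the 32 small-subunit genes 11 to 22 were seen per library, and of the 51 large-subunit genes 17 to 35.

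The part of a gene covered by peaks on its own strand, as a percent of its exonic bases, varied between libraries for some genes and little for others. Rpl19, named after its values were seen, ranged from 23.4% to 61.8% over the 6 Input libraries. Rpl8, a large-subunit protein, had 78.1%, 76.6% and 76.9% of its exonic bases covered in editing-deficient Input and 73.5%, 66.4% and 75.1% in Mavs-/- Input. The stalk, which recruits translation factors to the large subunit, divided: its base Rplp0 was covered over 56.2%, 57.8% and 56.3% in editing-deficient and 56.1%, 58.6% and 52.4% in Mavs-/- Input, and Rplp1 over 63.1% to 70.9% in the 6 libraries. Rplp2, the partner of Rplp1 in the stalk, had a peak only in replicate 3 of each genotype (10.6% and 9.98%). Rpsa, a small-subunit protein also known as a laminin receptor, was detected in all 6 libraries but with only 5.41% to 13.1% of its exonic bases covered. This leaves out exon bases under peaks kept apart for the snoRNA genes in its introns. In editing-deficient Input replicates 1 and 2 such a peak held 79 and 89 coding bases.

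**Figure D1:**
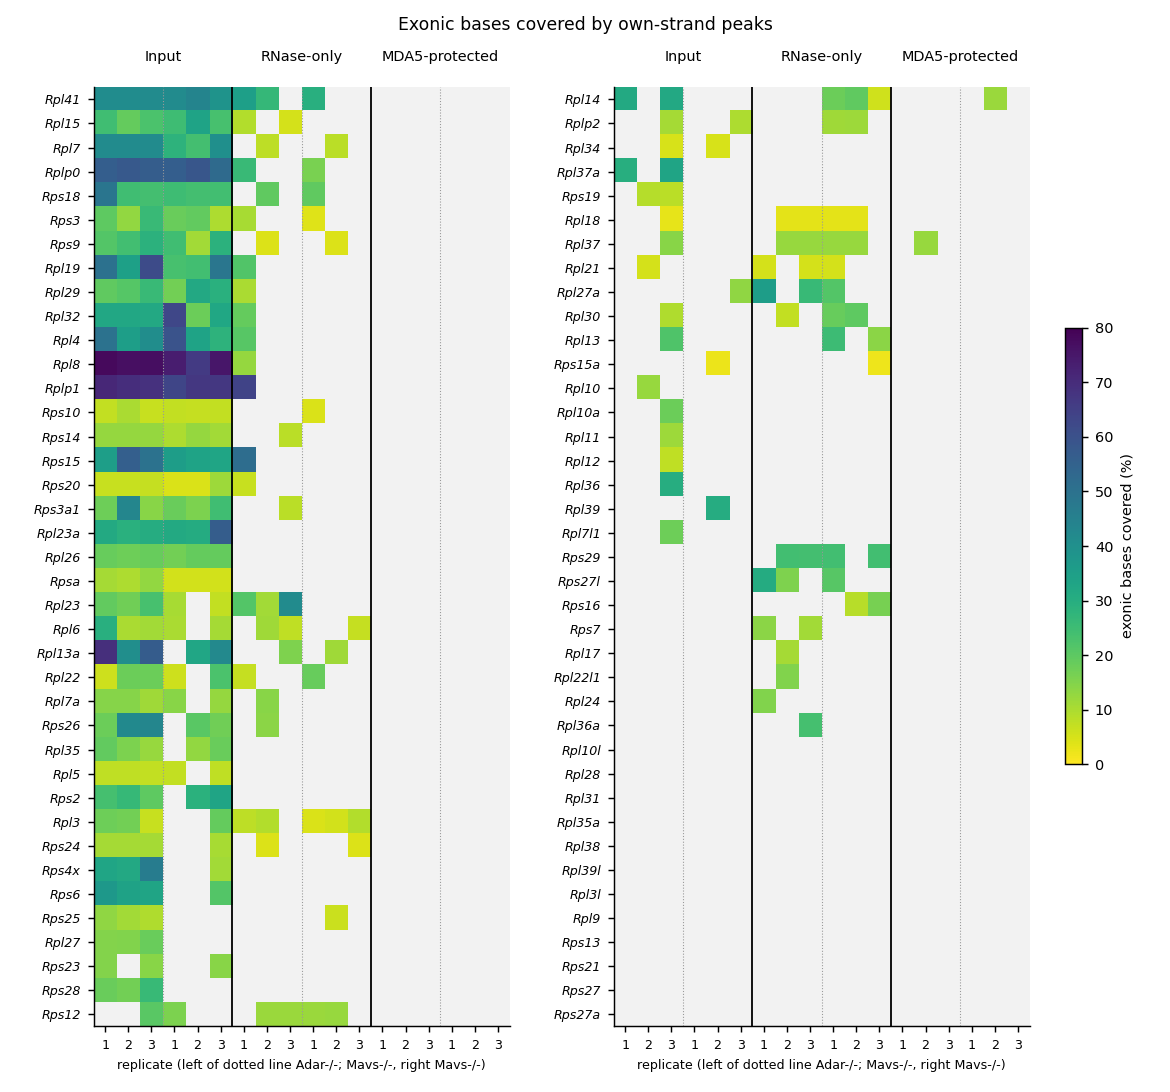
Percent of exonic bases covered by own-strand peaks for 78 of the 83 genes (rows) in the 18 libraries (columns, grouped by fraction and, at the dotted lines, by genotype). Genes are ordered by the number of Input and then RNase-only libraries with a peak, gray cells had none, and the MDA5-protected columns hold 2 colored cells, Rpl37 and Rpl14.

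No exonic Input peak was found for 21 genes in any of the 6 libraries, among them Rpl9, Rpl10l, Rpl17, Rpl22l1, Rpl24, Rpl28, Rpl31, Rpl35a, Rpl36a, Rpl38, Rpl39l, Rpl3l, Rps7, Rps13, Rps16, Rps21, Rps27, Rps27a, Rps27l and Rps29. Some are paralogues known for restricted expression, Rpl10l and Rpl39l in testis and Rpl3l in striated muscle, but most encode core subunits of every ribosome. Only 1 of the 6 paralogues, Rpl7l1, had an Input peak, in 1 library. Among the genes they are named after, Rpl7 was seen in all 6 Input libraries, Rpl22 in 5, Rpl3 in 4, Rpl10 and Rpl39 in 1 each and Rps27 in none.

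Short exons rarely had a peak. The longest exon of the reference transcript had a median of 247 nt in the 23 genes seen in all 6 Input libraries, 296 nt in the 39 seen in 1 to 5 and 186 nt in the 21 seen in none. Over all 450 exons, a peak in any Input library fell on 1 of 84 exons under 75 nt (1.19%), 9 of 73 exons of 75 to 99 nt (12.3%), 45 of 146 of 100 to 149 nt (30.8%), 38 of 77 of 150 to 199 nt (49.4%) and 34 of 70 exons of 200 nt or more (48.6%). The share rose with length over the shorter classes and was alike in the last pair. Rps21, whose longest exon has 72 nt, is among the undetected genes. Reads were 75 bp long and were placed by an aligner that does not split them over introns. In the other genes with Input peaks in at least 3 of 6 libraries the share rose over all classes. It was 11.2% of exons under 75 nt, then 16.8%, 27.2% and 41.5%, and 67.2% of those of 200 nt or more. The 42 ribosomal protein genes that passed the same limit had 2.86%, 21.9%, 48.6%, 70% and 63.4% in these classes.

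**Figure D2:**
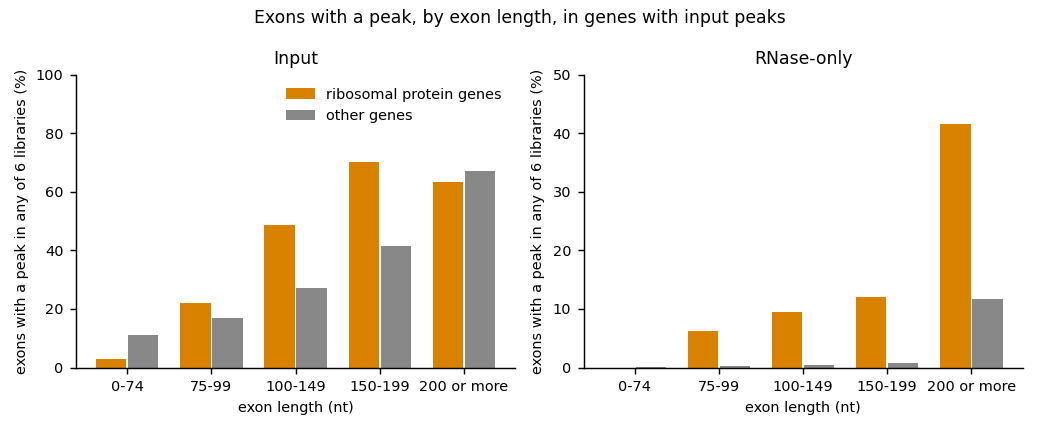
Percent of exons with a peak in any of the 6 Input (left) or RNase-only (right) libraries, by exon length in nt, for the 42 ribosomal protein genes with Input peaks in at least 3 libraries (orange) and the other genes that passed the same limit (gray). In Input the orange bars go from 2.86% for the shortest exons to 63.4% for the longest, and in RNase-only RNA from 0 to 41.5%.

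Copies in the genome are the other property that sets these genes apart from a typical messenger RNA. Aligned to annotated pseudogene transcripts, 79 of the 83 reference transcripts matched at least 1 at 95% identity or more over 75 nt or more, with a median of 5 pseudogenes and up to 61 for Rpl21. Of 294 pseudogenes named after these genes, 77 had an own-strand Input peak. Of the 21 genes without an exonic Input peak, 16 had such a copy with an Input peak (76.2%), Rps27a, Rps29 and Rpl31 among them, and so had 21 of the 23 genes seen in all 6 libraries (91.3%). Reads of a gene and of a near-identical copy cannot be told apart in these lists, and the part of exon length or copies in what went undetected was not tested.

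After RNase digestion without MDA5, exonic peaks remained on 47 of the 83 genes, with none seen in all 6 libraries and 20 seen in a single one. Numbers per library were 20, 19 and 14 in editing-deficient and 18, 13 and 10 in Mavs-/- RNA, and the genotypes overlapped. This was 1.08% to 1.51% of all genes with an exonic peak in these libraries. Of the 62 genes with an Input peak 38 also had an RNase-only peak (61.3%), which is 80.9% of the 47. The 9 genes with RNase-only but no Input peaks included Rpl17, Rpl22l1, Rpl24, Rpl36a, Rps7, Rps16, Rps27l and Rps29, and 12 genes had neither. Editing-deficient RNase-only replicate 1 stood apart: 8 of its 24 peaks overlapped a peak of another RNase-only library (33.3%), against 66.7% to 92.9% in the other five, and 14 overlapped Input peaks of its genotype (58.3%, against 0 to 21.1%). Without it 38 genes remained, and 8 of the 9 lost had Input peaks.

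**Figure D3:**
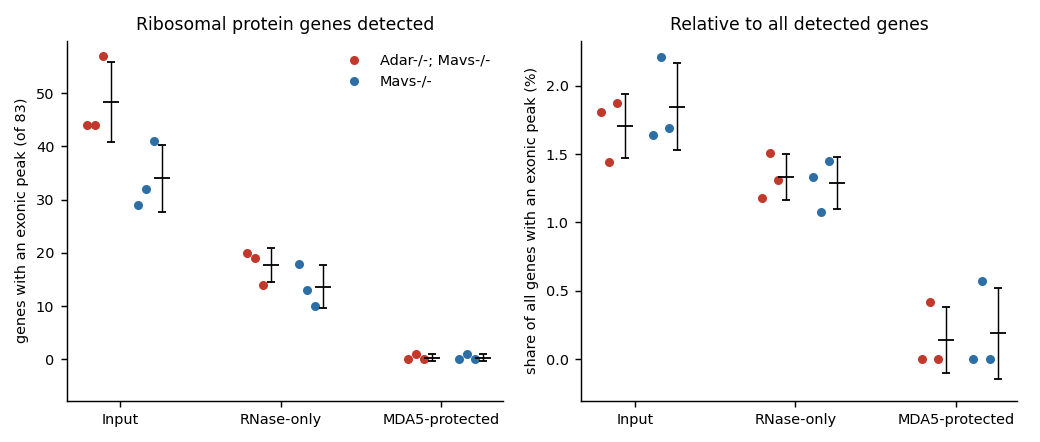
Number of the 83 genes with an exonic peak in each library (left) and their share of all protein-coding genes with an exonic peak (right), by fraction, in red for editing-deficient and blue for Mavs-/- libraries, with mean ± SD of 3 replicates in black. Input libraries hold 29 to 57 of the genes, RNase-only libraries 10 to 20 and MDA5-protected libraries 0 or 1.

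What remained lay at the end of the reading frame. Of 101 exonic RNase-only peaks 63 covered the stop codon (62.4%), against 101 of 409 Input peaks (24.7%). Per library the share was 45.8%, 73.7% and 73.3% in editing-deficient and 57.9%, 57.1% and 80% in Mavs-/- RNase-only RNA, and 22% to 29.8% in the 6 Input libraries, so the fractions did not overlap. In all other genes the share covering the stop codon was 18.6% of RNase-only and 21.5% of Input peaks. The exon with the stop codon was touched by 79.2% of RNase-only and 29.6% of Input peaks of the ribosomal protein genes, and by 69.6% and 34.7% of those of other genes. Middles of RNase-only peaks lay close to the stop codon and those of Input peaks further upstream, with medians of -15 and -262 nt relative to its end. These measures of place were chosen after the peaks had been seen. Digested libraries were called against Input of their genotype, and the part of that step in where RNase-only peaks lie was not tested.

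**Figure D4:**
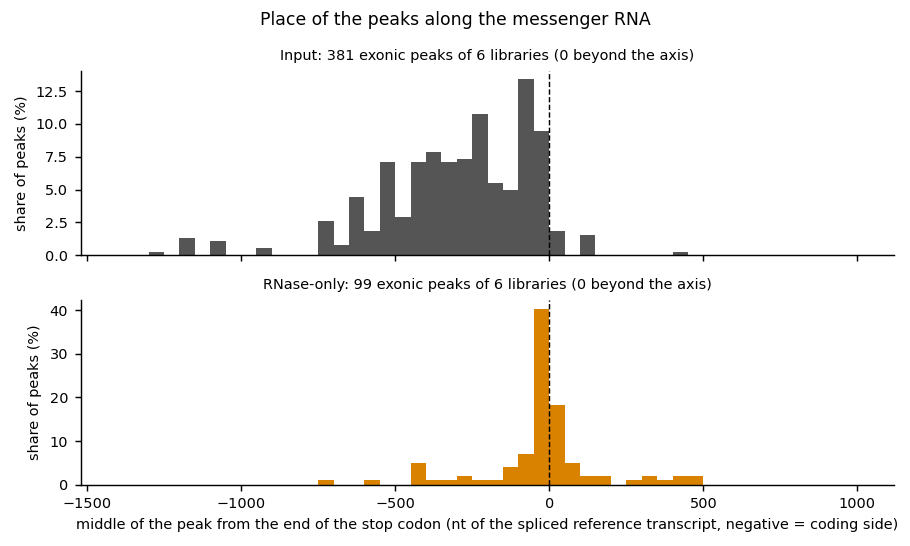
Middle of each exonic peak relative to the end of the stop codon, in nt of the spliced reference transcript (negative on the coding side), as a share of the peaks of 6 libraries, for Input (top, 381 peaks) and RNase-only RNA (bottom, 99 peaks). Within 150 nt of the stop codon lie 31.2% of the Input and 76.8% of the RNase-only peaks.

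In bases rather than peaks, Input covered 24.3% ± 5.18 of the coding and 3.47% ± 1.21 of the 3' UTR bases of the 83 genes (SD, n = 6 libraries of both genotypes). RNase-only peaks covered 2.56% ± 1.10 of the coding and 3.49% ± 2.16 of the 3' UTR bases. Coding cover was 18% to 31.1% in Input libraries and 1.49% to 4.59% in RNase-only libraries, without overlap, whereas 3' UTR cover was 1.74% to 5.18% and 1.05% to 6.77%, overlapping throughout. The 5' UTRs, which hold the oligopyrimidine tract, were covered over 0.801% ± 0.342 in Input and 0.0104% ± 0.0254 in RNase-only RNA (SD, n = 6). Bases of each region were pooled over all protein-coding transcripts of a gene, so long UTR isoforms lower the UTR percents.

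The peaks of the 6 RNase-only libraries merged into 57 regions, 31 seen in 1 library and 26 in 2 or more. Of the 26 recurrent regions 18 held the stop codon, 3 were purely coding, 3 had no coding base and 19 came from both genotypes. Only 7 of the 26 overlapped an Input peak, as did 15 of the 31 regions seen once. Median GC content was 45.2% in the 55 regions on the reference transcript and 50.7% in their whole transcripts, and 12 of the 55 were richer in GC than their transcript. Pseudogene copies were found for 33 of the 55, so reads there may come from a copy.

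The ends of overlapping peaks often agreed. Among pairs of overlapping RNase-only peaks from different libraries, both ends agreed to within 5 nt in 34 of 69 pairs on the ribosomal protein genes (49.3%) and in 2265 of 14133 pairs on other genes (16%). For Input the shares were 33.9% and 19.1%. Other recurrent regions had loose ends, such as Rpl27a, with 160 of 531 nt common to its peaks, and Rpl14, with 50 of 238 nt. On the exon with the stop codon, 35 of 80 RNase-only peaks began within 5 nt of the start of that exon (43.8%), against 13.4% of such peaks on other genes. In Input, 45 of 121 such peaks did so (37.2%), against 30.4% on other genes. Pairs share libraries and peaks share genes, so these shares are descriptions.

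Rpl3, a core protein that reaches toward the peptidyl transferase center, recurred most, in 5 of 6 RNase-only libraries. Its peaks covered 7.85%, 9.23% and 0 of its exonic bases in editing-deficient and 4.49%, 5.51% and 9.11% in Mavs-/- RNase-only RNA. All 5 lay wholly in coding sequence on exon 6 of 10, at a place without Input peaks, and ranked between the 29.4th and the 81.9th percentile of peak area in their libraries. Rps29, a zinc-binding protein of the small subunit, Rps12, also of the small subunit, and the large-subunit proteins Rpl37 and Rpl18 had peaks in 4 libraries each, 2 of each genotype. Rpl37 peaks had 107 nt in all 4 libraries, with the same first and last base, and ranked between the 64.5th and 69.3th percentile of area. Those of Rps12 had 81 or 82 nt, those of Rpl18 110 or 113 nt and those of Rps29 93 to 97 nt.

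The coding stretches common to all peaks of a gene are shown for the 4 most recurrent genes with enough coding sequence, on the messenger strand of GRCm38 as in GENCODE M21, because they are the parts of these messages that recurred after digestion. Capitals mark the stop codon. Rpl3 is from chr15:80079696-80079767 on the minus strand, Rpl37 from chr15:5118567-5118636 on the plus strand, Rps12 from chr10:23785211-23785273 on the minus strand and Rpl18 from chr7:45720719-45720789 on the plus strand.
Rpl3: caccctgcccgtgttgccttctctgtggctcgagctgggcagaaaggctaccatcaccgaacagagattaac
Rpl37: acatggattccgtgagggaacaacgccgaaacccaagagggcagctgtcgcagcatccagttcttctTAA
Rps12: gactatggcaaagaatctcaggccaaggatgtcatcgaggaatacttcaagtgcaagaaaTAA
Rpl18: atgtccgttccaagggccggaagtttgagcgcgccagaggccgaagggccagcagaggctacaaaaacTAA
The Rpl3 stretch ends inside the reading frame, and the other three end it with TAA. They range in GC content from 41.3% for Rps12 to 57.7% for Rpl18. The merged regions that hold them had 9 pseudogene copies for Rpl3, 1 for Rpl37 and none for Rps12 and Rpl18.

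Of 14 genes in 3 or more RNase-only libraries the other 9 were seen in 3 each, and the 5 highest in mean area percentile were taken. Rpl41, whose protein is a very short peptide, and Rpl27a had longer peaks, of 192 to 409 nt, that lay wholly or mostly in the 3' UTR. Rpl23 had 4 peaks of 137 to 261 nt, of which 2 covered the stop codon and 2 lay wholly in the 3' UTR. Rpl41 in editing-deficient replicate 1 reached the 99.4th percentile of area in its library, while Rpl41 in replicate 2 stood at the 19.4th. Rpl14, of the large subunit, had 3 peaks of 57 to 197 nt that covered the stop codon. The median area percentile of the 83 genes' peaks was 27.4 to 47.6 per RNase-only library. With a minimum area of 1000 in place of 500, the number of the 83 genes per RNase-only library fell from 15.7 ± 3.93 to 1.83 ± 1.94 (SD, n = 6). This left 0 to 25% of them per library, and 24.1% to 31.2% of all genes with an exonic peak.

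In the MDA5-protected fraction 2 exonic peaks were found on the 83 genes in 6 libraries. Rpl37 had a peak of 106 nt in editing-deficient replicate 2, with the same first base as its RNase-only peaks and an area at the 0.253th percentile of its library. Rpl14 had one of 120 nt over its stop codon in Mavs-/- replicate 2, at the 17.2th percentile. No gene was seen in more than 1 library, and in a library with none, 0 of 142 to 280 genes allows a share of up to 1.31% to 2.56% by the exact binomial 95% interval. The MDA5-protected libraries together had exonic peaks on 481 of all protein-coding genes (2.19%), and 2 of 83 is 2.41%.

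For each gene the cover in the 6 MDA5-protected libraries was set against that in the 6 RNase-only libraries, with a two-sided exact permutation test within genotypes over all 2419 genes that had an exonic Input peak in at least 3 Input libraries. The share called at an adjusted p of 0.05 was 0% of all genes, and 0 of the 42 ribosomal protein genes tested. Of all genes 135, and of the ribosomal protein genes only Rpl3, reached an unadjusted p of at most 0.05. Rpl3 had a mean cover of 6.03% in RNase-only and 0 in MDA5-protected RNA, higher in 5 of 6 RNase-only libraries, with an exact permutation p of 0.02 and a Benjamini-Hochberg adjusted p of 0.470, and 0.136 to 1 over the alternatives tried. The smallest p the design allows is 0.005, and 242 genes would have to reach it before any could be called, while 30 did. Cover was lower in MDA5-protected RNA for 28 of the 42 genes, higher for none and 0 in both for 14, and among all genes tested it was lower for 784 (32.4%) and higher for 53. The median difference was -1.58 percentage points for the 42 genes and 0 for all genes.

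The MDA5-protected lists are shorter, and this bears on the contrast. When each digested library was limited to its 1180 strongest peaks, the number in the shortest list, the RNase-only libraries retained 5, 1 and 0 of the genes in editing-deficient and 2, 2 and 3 in Mavs-/- RNA. The MDA5-protected libraries then had 0 in 5 libraries and 1 in Mavs-/- replicate 2, and the ranges overlapped. For the test, Input lists were also limited to 4326 peaks and the genes to be tested were chosen anew from them. Of the ribosomal protein genes, 5 were then lower in MDA5-protected RNA, and this is not a count out of the 42 above.

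Between genotypes, 3 libraries were compared with 3, for which no exact test can go below a p of 0.10. Genes were therefore counted where the exonic cover of the groups did not overlap. In Input, 12 of 62 genes were higher in editing-deficient liver and none lower, which is 19.4%, while among all 4315 genes with an Input peak 17.9% were higher and 3.01% lower. Rps4x, a small-subunit gene on the X chromosome, was covered over 33%, 31.8% and 46.4% in editing-deficient and 0, 0 and 11% in Mavs-/- Input, the largest difference at 33.4 percentage points. Rps6, the small-subunit protein phosphorylated by S6 kinases, had 37.4%, 34.1% and 33.4% against 0, 0 and 21.3%.

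Rps28, Rpl27 and Rps25 had Input peaks in all 3 editing-deficient libraries and in no Mavs-/- library, with mean cover of 20.5% ± 4.82, 16.0% ± 2.04 and 11.3% ± 1.98 (SD, n = 3). Rpl23 differed by 13.9, Rpl7 by 10.7, Rps24 by 7.28, Rpsa by 5.78, Rpl8 by 5.56 and Rplp1 by 3.94 percentage points. Of these, Rpl8 was named after its values were seen. The editing-deficient Input lists were the longer ones. Limited to 4326 peaks per library, 2 of the genes, Rplp1 and Rpsa, stayed above the Mavs-/- libraries, against 11.4% of all genes. Cover of Rpsa leaves out peaks kept apart for its snoRNA genes. In the full lists Gm24044 in Rpsa had such peaks in 1 editing-deficient and 3 Mavs-/- Input libraries. The part of this rule in the separation of Rpsa was not tested.

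Summed cover of the erythroid and of the endothelial markers did not overlap between genotypes in Input. That of hepatocyte, Kupffer cell and stellate markers overlapped. The part of cell types in the counts of separated genes was not tested. Of 8 erythroid genes 5, 5 and 4 had peaks in editing-deficient and 6, 6 and 7 in Mavs-/- Input, with summed cover of 291 to 357 against 380 to 501 percentage points. Epb42 was at 0 in all 6 libraries, and Alas2 in the editing-deficient ones. Of 4 endothelial genes 3, 3 and 3 had peaks in editing-deficient and 0, 2 and 3 in Mavs-/- Input, with summed cover of 39.4 to 48.5 against 0 to 20.8 percentage points, and Pecam1 was at 0 throughout. In whole tissue, fewer cells of a type and less RNA per cell cannot be told apart.

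After digestion, 1 gene was separated in each direction. Rpl23, a large-subunit protein that can bind MDM2, had 21.5%, 11.2% and 41.5% of its exonic bases covered in editing-deficient RNase-only RNA and 0 in the 3 Mavs-/- libraries. Its peaks lay in 2 separate regions, 1 seen in editing-deficient replicates 1 and 3 and the other in replicates 2 and 3. Rpl14 was separated the other way, with 0 in editing-deficient RNase-only libraries and 17.8%, 19.5% and 5.65% in Mavs-/- ones. Both separations held at 3150 peaks per library, and neither held with a minimum area of 1000. This is 1 of 47 genes in each direction (2.13%), while among all 3004 genes with an RNase-only peak 2.4% were higher and 0.832% lower in editing-deficient RNA. In the MDA5-protected fraction only 2 of the genes had a peak, each in 1 library, so a separation was not possible for them. The shares over 481 genes there were 3.53% and 1.66%.

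SnoRNA genes had peaks in Input and in no digested library. The introns of 29 ribosomal protein genes hold 57 annotated snoRNA genes, of which 14, in 11 hosts, had an own-strand peak centered outside the host's exons in at least 1 Input library. Numbers per library were 4, 6 and 7 in editing-deficient and 8, 6 and 8 in Mavs-/- Input, overlapping between genotypes. This is 7.02% to 14% of the 57, and 8.39% to 11.6% of the 310 snoRNA genes in introns of other genes had such peaks in the same libraries, and these ranges overlapped. Long peaks centered on an exon of the host reached into further snoRNA genes. With them 19 of the 57 were covered, 8 to 13 per library (14% to 22.8%, against 9.03% to 12.3% of the 310), so that the ranges no longer overlapped. In all 12 digested libraries the number was 0 of 57 and 0 of 310. The digested RNA was cleaned on columns that lose short RNA, and the part of that step was not tested.

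**Figure D5:**
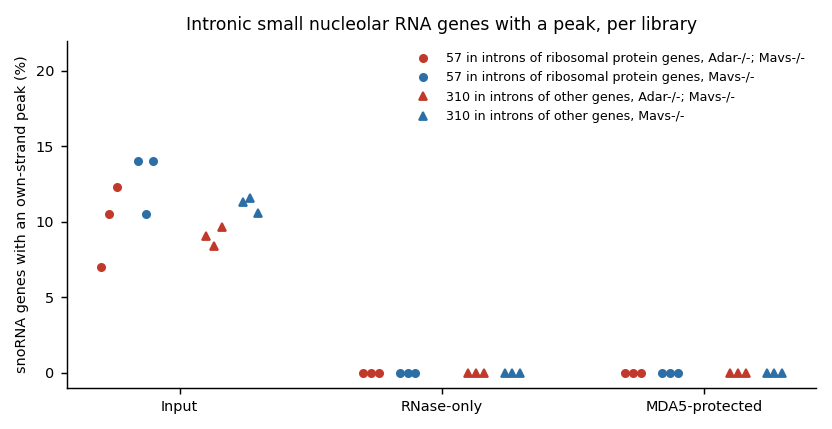
Percent of snoRNA genes in introns with an own-strand peak centered outside the host's exons in each library, for the 57 in ribosomal protein genes (circles) and the 310 in other genes (triangles), red for editing-deficient and blue for Mavs-/-. Input libraries stand at 7.02% to 14% and 8.39% to 11.6%, and all digested libraries at 0.

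Of the 57, 3 had such peaks in all 6 Input libraries, Snord15a and Snord15b in Rps3 and Gm26448 in Rpsa. Snord15a was covered over 59.5% to 100% of its length, Snord15b over 66.9% to 100% and Gm26448 over 76.8% to 100%. Snord16a in Rpl4 and Gm24044 in Rpsa were seen in 4 libraries, Snora21 in Rpl23 in 3 and Snord33 in Rpl13a in 2. Snord33 was covered in the other 4 Input libraries, and Snord21 of Rpl5 in 5, by peaks counted for the host's exons. By family, 6 of 21 genes with a C/D symbol, 6 of 10 with an H/ACA symbol and 2 of 26 with neither had an Input peak centered outside exons. Rpl7a and Rpl17 have 3 snoRNA genes each, none with such a peak. These hosts were chosen after their values were seen.

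The genes of the 3 seen in all 6 libraries are printed in full, since they are intronic parts of their hosts that every undigested library held. Sequences are the GENCODE M21 transcripts on GRCm38: Snord15a at chr7:99482785-99482932 and Snord15b at chr7:99479563-99479707, both on the minus strand, and Gm26448 at chr9:120129351-120129553 on the plus strand. Capitals mark the first TGATGA (the core of the C box) and the last CTGA (the D box) where TGATGA is present, and otherwise ACA in its place 3 bases before the end, as in H/ACA RNAs.
Snord15a: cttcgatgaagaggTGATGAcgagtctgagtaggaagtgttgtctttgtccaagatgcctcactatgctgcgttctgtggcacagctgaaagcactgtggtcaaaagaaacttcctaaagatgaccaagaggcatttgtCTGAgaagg
Snord15b: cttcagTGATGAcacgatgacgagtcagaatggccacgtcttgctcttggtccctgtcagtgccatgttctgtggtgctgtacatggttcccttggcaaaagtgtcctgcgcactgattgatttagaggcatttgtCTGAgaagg
Gm26448: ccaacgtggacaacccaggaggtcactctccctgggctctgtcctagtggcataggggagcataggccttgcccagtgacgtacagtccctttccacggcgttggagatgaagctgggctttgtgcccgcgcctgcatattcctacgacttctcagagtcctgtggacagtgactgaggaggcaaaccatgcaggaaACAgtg
Among the 367 snoRNA genes in introns of protein-coding genes, searched on their own strand, 28.1% hold TGATGA, 71.7% hold CTGA and 38.7% have ACA at that place, and 1 sequence can hold several.

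Apart from snoRNAs, a single gene of the 83 had peaks in an intron. Rps14, of the small subunit, has annotated transcripts that begin far upstream of its reference transcript, and in their first intron a peak centered 1418 to 1680 nt after the start of the gene was present in 5 RNase-only and 4 MDA5-protected libraries, from both genotypes. In 8 of these 9 libraries the peak covered the same place, 95 to 183 nt long, and in editing-deficient RNase-only replicate 1 it was 31 nt long and lay elsewhere in the intron, where editing-deficient Input replicate 1 also had one. Peak area stood between the 8.74th and 83.5th percentile. Of all protein-coding genes, 1.08% to 4.48% had an intronic peak in a digested library, and 1 of 83 is 1.2%. The introns of ribosomal protein genes are short, with a median of 2114 bases per gene against 14349. No peak lay on the opposite strand of the genes' exons in any of the 18 libraries.

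Genes with related roles were described the same way. Fau and Rack1 had Input peaks in 6 of 6 libraries each. In RNase-only RNA Rack1 was seen in 2 libraries and Fau in none, and no MDA5-protected library held either. Of 16 translation factors and other genes with oligopyrimidine tracts, 10 had an Input peak and 14 an RNase-only peak in any library, with Pabpc1, the poly(A)-binding protein, in 5 of 6 RNase-only libraries. Eif3f, named like Pabpc1 after its values were seen and a subunit of initiation factor eIF3, had an exonic peak in all 6 MDA5-protected libraries. Of 78 mitochondrial ribosomal protein genes 30 had Input, 35 RNase-only and 4 MDA5-protected peaks, and of the 83 cytosolic ones 62, 47 and 2. Among all genes with Input peaks in at least 3 libraries, 808 of 2419 had an RNase-only peak (33.4%) and 123 an MDA5-protected one (5.08%). For the ribosomal protein genes among them these were 28 of 42 (66.7%) and 0 of 42.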

How the data were processed

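Liver RNA was sequenced in 18 libraries (2 genotypes, 3 fractions, 3 replicates), grouped by title and genotype in the deposited labels. Reads were trimmed by the authors with Trim Galore 0.6.6, placed on GRCm38 by NextGenMap, which does not split them over introns, and turned into peaks for each library and strand with Genrich 0.6.1 (adjusted p at most 0.01, area at least 500, gap at most 20 bp), digested libraries against input of their genotype, so a place with much input needs more signal there. Column 7, as deposited, is a score, the area under the significance curve, and columns 8 and 9 are −log10 of the authors' p- and adjusted p-values. Areas grow with depth and were used as percentiles within a library. The lists hold no read counts, so depth is unknown.

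A peak was assigned to a gene of GENCODE M21 on its strand by 1 bp of exon of a protein-coding transcript. Peaks whose middle lay outside exons and that overlapped a snoRNA gene were kept apart, and snoRNA genes were counted by those peaks only. Some of those peaks also reach into exons of the host, and they add nothing to its exonic cover. Exonic cover is the percent of the union of those exons, so genes with long isoforms have low values. Stop codons come from 1 reference transcript per gene (APPRIS and CCDS tags, then support level). The exact permutation test used 400 arrangements, with Benjamini-Hochberg adjustment over all genes tested. Scripts were tested on simulated data. Python 3.11.15, numpy 2.4.6, matplotlib 3.10.9 and BLAST 2.17.0 were used.

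Members and lists were chosen with earlier results of these data known. Named were the 10 genes with most RNase-only libraries, those separated between genotypes, up to 10 per fraction, those without Input peaks or with intronic peaks, Rplp0, Rplp1, Rplp2, Rpsa, Rps6 and the paralogues with their namesakes. The Input snoRNA hosts, the place and ends of peaks, exon length, copies and the counts of snoRNA genes with host-exon peaks were added after seeing the data. Protein sequences were not used here. Some genes that the naming rule selects are counted in the totals but not reported here by name.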

Additional observations from a re-analysis of the deposited data

How the results depend on the processing

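Among recomputed group counts and means, 294 values stayed within 1 SD, or within 1.5 times for counts, and 38 did not. Counts that were 0 and remained 0 are among the 294, such as the calls between the digested fractions. Of the values of single genes and of shares over all genes, 277 stayed, 27 moved and 19 lost their separation. No gene was called between the digested fractions under any alternative: 50% of a peak inside the feature, exons of all transcripts, strands ignored, equal lists, other sets of genes, permutation ignoring genotype, presence of a peak and each library left out. The replicate block was also tried but could not have given a call. A minimum area of 1000 moved most values: Input held 14.3 and RNase-only libraries 1.83 of the genes, coding cover was 8.83% and 0.390%, 3' UTR cover 1.52% and 0.767%, and the median area percentile 77.1 and 82.9. Peaks covering the stop codon were then 30.6% of Input peaks, snoRNA genes 3 per Input library in place of 6.5, digested libraries with an intronic peak 4, genes lower in MDA5-protected RNA 4, and genes separated between genotypes 5 in Input and 0 and 0 in RNase-only RNA.

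With equal numbers of strongest peaks, Input held 29 and RNase-only libraries 9.5 genes, Input coding cover was 17.5% with 29.1% of peaks on the stop codon, area percentiles were 58.5 in both fractions, and 5 genes were lower in MDA5-protected RNA and 2 higher in editing-deficient Input. Testing all genes with a digested peak, 47 of the 83 were lower in MDA5-protected RNA. All 47 entered that set through RNase-only peaks, and only 2 had an MDA5-protected peak. Their direction thus follows from the choice of the set and is not read as a result. With presence in 3 of 3 against 0 of 3 libraries, 3 genes were higher in editing-deficient Input. With exons of all transcripts 2.5 snoRNA genes per Input library had a peak centered outside exons, and with peaks counted for host exons 10.7 did. The cause of these shifts was not tested, apart from the fewer peaks or the other genes that the settings themselves admit.

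The replicate number as a block gave 0 calls between fractions, and none was possible. Its test has few arrangements, and 1582 of the 2419 genes tested had no digested peak. Between genotypes the block gave 16 genes higher and 1 lower in editing-deficient Input. Between the deviations of same-numbered RNase-only and MDA5-protected libraries r was 0.161 to 0.207 in editing-deficient and 0.406, 0.032 and 0.476 in Mavs-/- mice. As 1 of the 6 was not above 0.1, the numbers were not taken to pair samples. In editing-deficient mice 3 of 3 RNase-only libraries correlated best with their own number, and 2 of 3 in Mavs-/- mice. Leaving out 1 library gave 14 to 19 genes higher and 0 to 3 lower in editing-deficient Input, 1 to 4 higher and 1 to 3 lower in RNase-only RNA, where dropping editing-deficient replicate 2 gave the 4 and Mavs-/- replicate 3 the 3. Dropping editing-deficient Input replicate 2 gave the 19. The share of all genes that was higher rose as well. It was 19.9% to 27.8% in Input, against 17.9% with all libraries, and 2.86% to 7.01% in RNase-only RNA, against 2.4%. Groups with fewer libraries separate more easily. The genotype counts under the block, presence and the larger area were not set beside all genes. Nor were the counts of lower genes with 1 library left out. None of these counts is read as a result about these genes.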
